A study of Mus musculus with 16 samples.

Results

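Cycling cells of the liver-draining lymph node (LN) were examined in 3 CITE-seq libraries, in which the RNA and 11 surface antibody tags of each cell had been counted. A cell was called cycling when it held 1 or more unique molecular identifiers (UMIs, each a counted molecule) of Mki67 and 1 or more of Top2a, so these cells were chosen by the measured counts of both genes. The rule found 173 cells among 19543 LN cells of the 3 libraries, and the whole series of 8 RNA libraries held 53595 cells under the same filters. There were 72 cycling cells at D0, 42 at D5 and 59 at D19.

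D0 was the LN of mice that received no DDC. D5 and D19 were the LN of mice fed for that many days with chow in which the xenobiotic 3,5-diethoxycarbonyl-1,4-dihydrocollidine, or DDC, made up 0.1%, a diet that injures the bile ducts and causes cholestasis and cholangitis. The title of the D5 library gave day 5 while its description gave day 6, and the name D5 is kept. All mice were C57BL/6J wild type, given by the methods as males of 6 to 12 weeks. The number of mice behind a library was not given in the sources used here, and each day was 1 library, so no test between days was possible. All intervals below are 95% intervals that cover counting error only, and shares carry exact Clopper-Pearson intervals.

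The suspension was not left unsorted. Hepatoduodenal and celiac nodes had been digested and sorted into living singlets, CD45+ CD11c- cells, CD45+ CD11c+ cells, Pdpn+ cells and CD45- Pdpn- cells, and these fractions had been mixed at equal ratios. The mix therefore sets how many dendritic, lymphoid and stromal cells a library holds, and a share of a whole library is not a share of the node. All barcodes together held 45317389 RNA UMIs in the D0 library, 47653941 in the D5 library and 32013882 in the D19 library. No cycling cell shared its barcode with a cycling cell of another library, and the libraries shared between 9 and 12 barcodes of passing cells pair by pair.

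In a dividing cell, genes of DNA replication are made in S phase and genes of chromosome segregation in G2 and mitosis. Mki67 encodes the Ki-67 protein that coats mitotic chromosomes, and Top2a encodes the topoisomerase that untangles replicated DNA. In a lymph node, division is known from T cells answering antigen, from B cells of germinal centres, where antibodies are refined and switch class, and from plasmablasts and dendritic cell (DC) precursors. Both marker genes belong to the late cell cycle group whose promoters carry CHR elements and CCAAT boxes, bound by the MuvB-containing complexes and by NF-Y. The promoters are shown because the whole population rests on these genes. Each run is the 250 bases before the annotated start (RefSeq, GRCm38.p6, minus strand), at chr7:135716380-135716629 for Mki67 and chr11:99024190-99024439 for Top2a, with CHR elements (TTTGAA or TTCGAA) and CCAAT boxes of either strand in capitals.
Mki67: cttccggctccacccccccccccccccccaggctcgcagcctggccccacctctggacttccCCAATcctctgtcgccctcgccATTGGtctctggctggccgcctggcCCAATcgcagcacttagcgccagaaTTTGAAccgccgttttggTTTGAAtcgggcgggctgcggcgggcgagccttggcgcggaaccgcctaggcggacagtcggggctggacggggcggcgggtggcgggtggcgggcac
Top2a: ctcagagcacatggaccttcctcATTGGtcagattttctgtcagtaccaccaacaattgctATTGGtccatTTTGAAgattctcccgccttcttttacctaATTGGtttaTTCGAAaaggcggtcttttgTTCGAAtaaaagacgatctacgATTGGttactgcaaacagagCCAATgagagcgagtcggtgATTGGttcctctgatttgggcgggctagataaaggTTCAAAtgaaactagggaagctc

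The Mki67 promoter held 2 CHR matches and 3 CCAAT boxes in this run, and that of Top2a held 4 and 6. Neither held the E2F letters given below. TTCGAA reads the same on both strands and was counted once, and none of these motifs overlaps another here. Over the window of 250 bases before to 50 bases after the start, a CHR match stood in 36 of 50 promoters of a G2/M gene list (72.0%, 45 genes), in 6 of 33 promoters of an S phase list (18.2%, 30 genes) and in 19.2% of all 32851 mouse promoters. CCAAT matches were found in 74.0%, 66.7% and 37.4% of these promoters. The E2F letters TTTGGCGC or TTTCGCGC were found in 4.00%, 21.2% and 0.813%. The G2/M promoters thus carried CHR letters more often and the S phase promoters E2F letters more often than promoters in general. A match is a description of letters and not a bound site.

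Surface tags were read as antibody-linked oligonucleotides, and the 5 that sort the cycling cells into T cell subsets and DC are shown, 5′ to 3′.
CD3: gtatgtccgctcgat
CD4: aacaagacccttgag
CD8a: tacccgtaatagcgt
XCR1: tccattacccacgtt
CD11b: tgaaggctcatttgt

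Cycling cells were 1.10% of the D0 library (72 of 6542 cells, interval 0.862 to 1.38%). They were 0.672% of the D5 library (42 of 6248 cells, 0.485 to 0.908%) and 0.874% of the D19 library (59 of 6753 cells, 0.666 to 1.13%). D5 was lower than D0 by more than counting error, with a difference of -0.428 percentage points (interval -0.768 to -0.0933). D19 minus D0 was -0.227 points (-0.578 to 0.120), which counting error spans. D19 minus D5 was likewise spanned, at 0.201 points (-0.113 to 0.515).

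The gate favoured deep cells. Cycling cells had median depths of 17307.5, 18009 and 14572 UMIs on the 3 days, against 4905, 4915.5 and 3318 in all other cells. After each cell was thinned to 1000 UMIs, 0.135%, 0.0949% and 0.0765% of cells were still expected to pass. Mature DC, defined by 2 or more UMIs of both Fscn1 and Ccl22, are not known to divide and give a comparison. There 0 of 133 cells passed at D0 (0 to 2.74%), 2 of 135 at D5 (1.48%, 0.180 to 5.25%) and 5 of 376 at D19 (1.33%, 0.433 to 3.08%), at median depths of 8401, 10366 and 6160 UMIs. The library shares at D5 and D19 are not above these. Of those mature DC, the 2 at D5 and 3 of the 5 at D19 also held 10 or more genes of the S or G2/M list. Their share thus rests on few cells and is not a rate of false calls. It cannot decide what part of a library share is background. The difference between whole libraries is not read as a change in dividing cells. Free RNA, taken from barcodes with 10 to 100 UMIs, held Mki67 at 19.7, 4.61 and 20.9 CPM (UMIs of a gene scaled to a total of 1000000 UMIs), against 269, 376 and 249 CPM in the cycling cells.

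**Figure D1:**
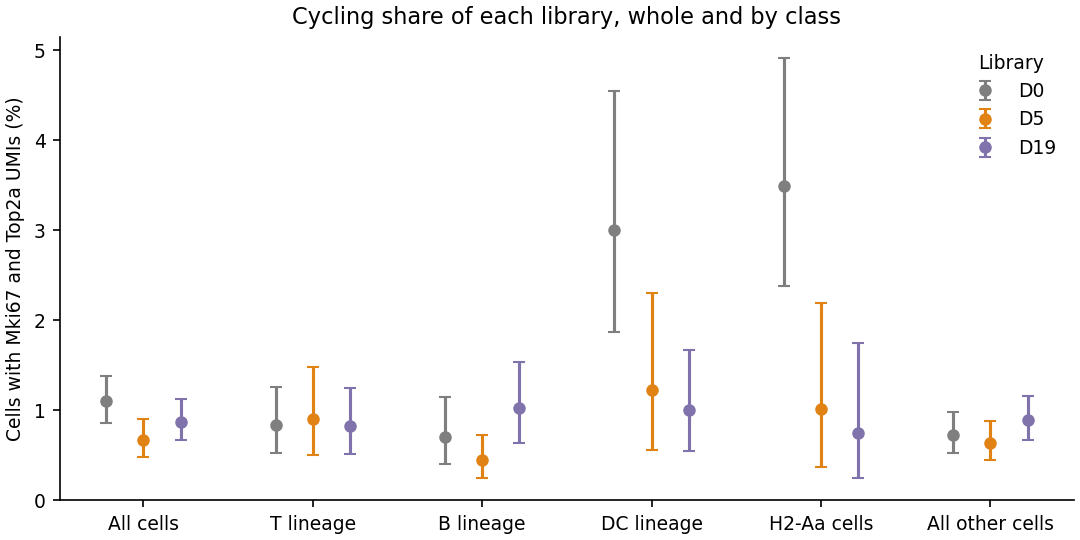
Percent of cells holding Mki67 and Top2a UMIs in each library (y axis), for all cells, for 3 lineages set by UMI sums, for cells with 10 or more H2-Aa UMIs that lack full T or B marker sets, and for all cells outside that class; points are shares and bars exact 95% intervals for counting error. The D0 points of the DC lineage (3.00%) and of the H2-Aa cells (3.49%) sit above those of D5 and D19, whereas the T lineage points lie between 0.821 and 0.902%.

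Within the gate, counts of the marker genes ranged widely. A cell held a median of 4, 4.5 and 3 Mki67 UMIs at D0, D5 and D19, with highest values of 20, 40 and 15. Top2a had medians of 6, 5 and 4 UMIs and highest values of 33, 57 and 22. Just inside the threshold, 8, 4 and 9 cells held exactly 1 UMI of each gene. Just outside it, 359, 305 and 197 cells held 1 or more UMIs of one gene and none of the other.

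Other cell cycle genes were present in most of these cells, although they belong to the cells the gate had selected and are a description only. Of 52 G2/M genes, Mki67 and Top2a excluded, a cycling cell held a median of 27.5 at D0, 25 at D5 and 26 at D19. The other cells held medians of 5, 5 and 3, and their 99th percentiles were 14, 12 and 10. Of 42 S phase genes, the medians were 28.5, 31 and 23 in cycling cells and 3, 3 and 2 in the others. Few cells stood apart from this pattern, since 6, 5 and 4 cycling cells held under 10 genes of both lists. In the reverse direction, 20, 6 and 5 cells outside the gate held 20 or more G2/M genes.

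In value, the balance of the phases was not the same on all days. Summed G2/M UMIs exceeded summed S phase UMIs in 52 of 72 cycling cells at D0 (72.2%, 60.4 to 82.1%) and in 26 of 42 at D5 (61.9%, 45.6 to 76.4%). At D19 they did so in 54 of 59 cells (91.5%, 81.3 to 97.2%). By lineage the counts were 20 of 21 T, 19 of 22 B and 13 of 14 DC-lineage cells at D19, against 15 of 22, 12 of 16 and 15 of 21 at D0. The intervals of these days overlapped within each lineage, at 76.2 to 99.9% against 45.1 to 86.1% in T cells. They were 65.1 to 97.1% against 47.6 to 92.7% in B cells and 66.1 to 99.8% against 47.8 to 88.7% in DC. Over all cycling cells the intervals of D0 and D19 overlapped as well, at 60.4 to 82.1% against 81.3 to 97.2%. Overlap of separate intervals does not settle whether days differ, and no interval of the difference was computed for these shares. They are therefore given as values, and a difference within a lineage is neither read nor excluded. The summed S phase level was 4353, 4381 and 3233 CPM on the 3 days and the G2/M level 8216, 7211 and 8315 CPM. In other cells the S phase level was 712, 661 and 591 CPM and the G2/M level 1506, 1299.7 and 1112 CPM, so both were lowest at D19 outside the gate.

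**Figure D2:**
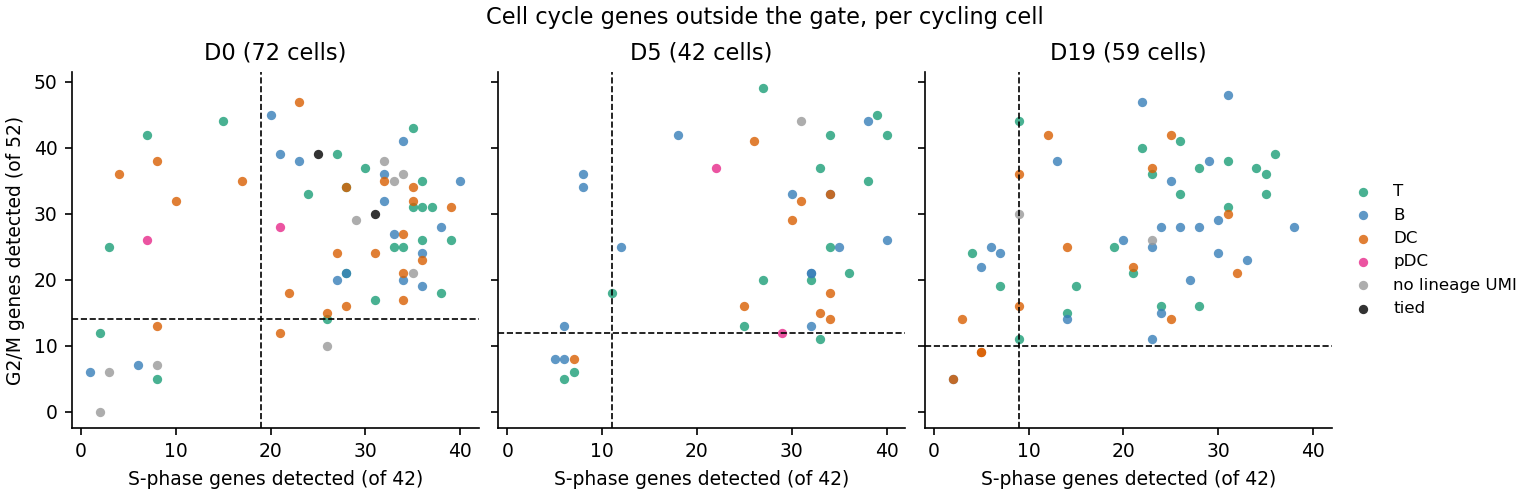
Number of S phase genes (x axis, of 42) against number of G2/M genes other than Mki67 and Top2a (y axis, of 52) detected in each of the 173 cycling cells, coloured by lineage, 1 panel per library; dashed lines mark the 99th percentile of all other cells of that library. Most points lie above and to the right of both lines, and 6, 5 and 4 cells hold under 10 genes on both axes.

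A gate without Mki67 and Top2a was also applied, since it does not rest on the chosen genes. It took cells with 5 or more genes of either list after thinning to 1000 UMIs. It found 147 cells at D0 (2.25%, 1.90 to 2.64%), 61 at D5 (0.976%, 0.748 to 1.25%) and 61 at D19 (0.903%, 0.692 to 1.16%), of which 50, 28 and 37 were among the cycling cells. D0 thus stood above both later days by this gate at 1000 UMIs. Of its cells, 66, 22 and 19 held neither Mki67 nor Top2a. No background share was measured for this gate. Cells outside the marker gate also held both lists at their highest levels at D0, as given above. The gate of both marker genes had the same order at 1000 UMIs, as given above, and another at 5000 UMIs. There 1.23% of cells passed at D0, 0.734% at D5 and 1.97% at D19, after 3324, 3170 and 5126 shallower cells had been left out. The gate without the marker genes was not run at 5000 UMIs.

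Lineage was assigned by the largest UMI sum among Cd3d, Cd3e and Cd3g for T cells, Cd79a and Cd79b for B cells, Fscn1, Ccr7, Xcr1 and Clec9a for DC, and Siglech for plasmacytoid DC (pDC). The first sets encode the signalling chains of the T cell and B cell receptors. At D0, 22 cycling cells were T, 16 B, 21 DC and 2 pDC, with 9 cells at 0 UMIs in all sums and 2 tied. At D5, 15 were T, 15 B, 9 DC and 2 pDC, and 1 had no sum. At D19, 21 were T, 22 B and 14 DC, none was pDC, and 2 had no sum. B cells were 22.2% of cycling cells at D0, 35.7% at D5 and 37.3% at D19, but the intervals of the differences from D0 held 0 (13.5 points, -4.65 to 32.1, and 15.1 points, -1.62 to 31.3).

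The T and B calls were also read by how many marker genes a cell held, most of which the sums had used. All 3 T genes were detected in 19 of 22, 15 of 15 and 20 of 21 T-lineage cells, and 2 or more of Cd79a, Cd79b and Ms4a1 in 13 of 16, 15 of 15 and 22 of 22 B-lineage cells. The DC call was the weakest at D0, where the median largest sum was 5 UMIs and 6 of the 21 cells had a sum of 1 or 2. A stricter set of firm calls was therefore also read. It kept cells with a largest sum of at least 3 UMIs, every other sum under 2 UMIs with Ccr7 left out of the DC sum, the marker sets just named, no high doublet score and 10 or more genes of either cycle list. It held 32 of 72 cells at D0 (44.4%), 29 of 42 at D5 (69.0%) and 36 of 59 at D19 (61.0%). Among firm calls the B share was higher at D19 than at D0 by 34.0 points (9.29 to 54.4), with 19 of 36 against 6 of 32 cells. The DC share was lower at D19 (difference -31.9 points, -51.4 to -10.9), with 2 of 36 against 12 of 32 cells. Over all cycling cells the DC share differed by -5.44 points (-21.1 to 10.9), an interval that held 0. Firm calls kept 6 of 16 B and 12 of 21 DC-lineage cells at D0, against 19 of 22 and 2 of 14 at D19. The filter was set after values had been seen and kept unlike parts of each lineage. The differences among firm calls are therefore given as values of the filter.

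Within the lineages, the share of cells with both marker genes showed no difference past counting error in T cells, and was highest at D0 in DC. It was 0.834% of T-lineage cells at D0 (22 of 2638, 0.523 to 1.26%), 0.902% at D5 (15 of 1663, 0.506 to 1.48%) and 0.821% at D19 (21 of 2558, 0.509 to 1.25%). The difference from D0 was 0.0680 points at D5 (-0.514 to 0.727) and -0.0130 points at D19 (-0.541 to 0.518), so a change of up to about the size of the share itself is not excluded by the counts. Of B-lineage cells, 0.706% cycled at D0 (16 of 2265), 0.441% at D5 (15 of 3400) and 1.02% at D19 (22 of 2158), with differences from D0 of -0.265 points (-0.744 to 0.150) and 0.313 points (-0.267 to 0.914). The gate without Mki67 and Top2a gave another picture. By it, T-lineage cells passed at 2.12% at D0, 1.02% at D5 and 0.821% at D19, with differences from D0 of -1.10 points (-1.86 to -0.302) and -1.30 points (-2.0005 to -0.630). B-lineage cells passed at 2.08%, 0.735% and 1.20%, with differences of -1.34 points (-2.06 to -0.692) and -0.870 points (-1.66 to -0.0909). All 4 intervals exclude 0, with D0 the highest. No background share was measured for this gate, so these are values of the gate and no change is read from them. The G2/M list was also highest at D0 in cells outside the marker gate. It stood at 1530, 1383 and 1162 CPM in other T cells and at 1549, 1329 and 1249 CPM in other B cells. The part of this level in the differences was not tested.

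Of DC-lineage cells, 3.00% cycled at D0 (21 of 700, 1.87 to 4.55%), 1.22% at D5 (9 of 738, 0.559 to 2.30%) and 1.001% at D19 (14 of 1398, 0.549 to 1.67%). The differences from D0 were -1.78 points at D5 (-3.46 to -0.213) and -1.999 points at D19 (-3.61 to -0.680), both past counting error. The D0 share lay above that of mature DC of the same library (0 to 2.74%) only in its point value, as the intervals overlap. After thinning to 1000 UMIs the shares were 0.160%, 0.266% and 0.0496%, or 1.12, 1.96 and 0.693 expected cells. D5 was then above D0 in value, but so few expected cells, without an interval, cannot decide the order of the days. With the gate free of Mki67 and Top2a they were 3.43%, 1.49% and 0.501%, and after thinning to 5000 UMIs 1.94%, 1.06% and 0.903%, with D0 highest in both. At D5 and D19 the shares of T, B and DC-lineage cells all lay at or below those of mature DC, which are not rates of false calls. The lineage shares are given as values of the gate, with no change read from them.

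**Figure D3:**
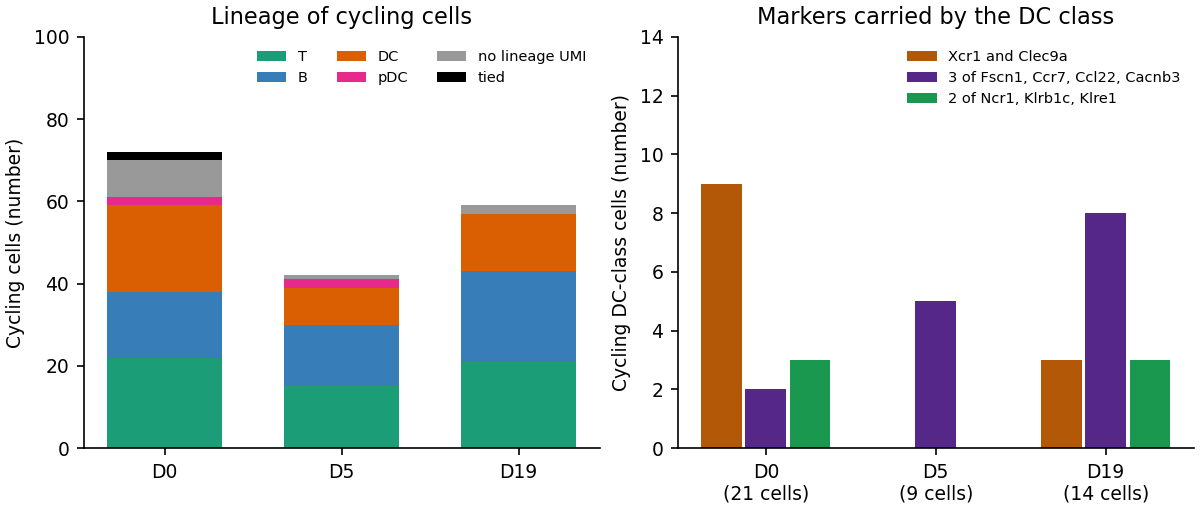
Left, number of cycling cells per library, stacked by lineage; right, number of cycling DC-class cells that carry Xcr1 and Clec9a, at least 3 of 4 mature DC genes, or at least 2 of 3 NK genes. The DC class holds 9 cells with Xcr1 and Clec9a at D0 and none at D5, and 2, 5 and 8 cells with mature DC genes on the 3 days.

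Many D0 cells outside the T and B lineages carried MHC class II RNA, the antigen-presenting molecules of DC and B cells. A class was therefore drawn, after its values had been seen, of cells with 10 or more UMIs of H2-Aa (an MHC class II chain) that lacked the full T set and had fewer than 2 of these B markers. It held 31 cycling cells at D0, 6 at D5 and 5 at D19. Cycling cells made up 3.49% of the class at D0 (31 of 888, 2.38 to 4.92%), 1.01% at D5 (6 of 592, 0.373 to 2.19%) and 0.751% at D19 (5 of 666, 0.244 to 1.74%). The differences from D0 were -2.48 points (-4.04 to -0.860) and -2.74 points (-4.26 to -1.25). Among all other cells the share was 0.725%, 0.636% and 0.887%, with differences from D0 of -0.0887 points (-0.409 to 0.229) and 0.162 points (-0.177 to 0.4996). At D5 and D19 the class was at or below the share of mature DC. Both intervals of the class exclude 0 and those of the rest hold 0. Since the class was drawn from what was seen at D0, this contrast is a description and lends it no support. By the gate without the marker genes, D0 was also the highest in T and B cells, so by that gate a higher D0 share was not confined to this class. No background share was measured for that gate.

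These H2-Aa cells held a lowest, median and highest of 10, 97 and 334 H2-Aa UMIs at D0, 50, 121.5 and 227 at D5, and 32, 72 and 88 at D19. At D0, 17 of the 31 held Flt3, the receptor that drives DC development, and 23 held Kit, a receptor of blood progenitors that some DC precursors keep. Fscn1, the actin-bundling protein of mature DC, was found in 6 of the 31 at D0, 5 of the 6 at D5 and 3 of the 5 at D19. CD11b, a surface integrin of myeloid cells, was tagged at 100 or more UMIs in 21, 6 and 4 of these cells. These genes and this tag were not counted in the other cells of the class. The cycling cells were deep, with medians of 17581, 16976 and 21507 UMIs, so no trait particular to them is read from the counts. The class at large was shallower at D19, with a median of 5135 UMIs against 8629.5 at D0 and 9086.5 at D5, and its part in the lower share was not tested. After thinning to 1000 UMIs, 0.424%, 0.177% and 0.0778% of the class were expected in the gate, in the same order, or 3.77, 1.05 and 0.518 cells.

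The DC markers carried by cycling cells of the DC class were counted on each day. Xcr1, a chemokine receptor, and Clec9a, a receptor for dead cells, mark the conventional type 1 DC (cDC1). The DC sum had used both genes, so their counts are a description of the class. Both were found in 9 of 21 cells at D0, in 0 of 9 at D5 and in 3 of 14 at D19. D5 minus D0 was -42.9 points (-66.0 to -3.19). D19 minus D0 was -21.4 points, with an interval that held 0 (-50.0 to 14.7). Among firm calls the counts were 6 of 12, 0 of 6 and 1 of 2, and both intervals of the differences from D0 held 0. Among the other DC-class cells, 11.05%, 3.16% and 2.38% carried both genes, so cDC1 cells were fewer outside the gate at D5 and D19 as well. The XCR1 tag had not been used by the rule, and it reached 10 UMIs in 11 of 21, 4 of 9 and 7 of 14 cells. It did so in 35.6%, 30.3% and 26.1% of the other DC-class cells. Of the tagged cycling cells, 10 of 11, 1 of 4 and 2 of 7 held Xcr1 RNA. Cycling DC-class cells were deeper, with medians of 17581, 14567 and 22056 UMIs against 7411, 7900 and 4473.5 in the others. The median of the XCR1 tag was 113 UMIs (15 to 492) in the 9 D0 cells with both genes and 75 (6 to 110) in the 3 D19 cells. In the DC-class cycling cells without both genes the medians were 1.5, 4 and 6 tag UMIs, and single cells reached 89, 121 and 88, so tag and RNA did not separate the cells in full.

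Taken over all cells with Xcr1 and Clec9a, whatever their class, 12 of 101 cycled at D0 (11.9%, 6.29 to 19.8%), 0 of 27 at D5 (0 to 12.8%) and 3 of 39 at D19 (7.69%, 1.62 to 20.9%). These cells were deep, with medians of 17044, 18300 and 11452 UMIs. The D5 interval reaches the D0 share, so at this depth an unchanged cycling share of cDC1 cells is not excluded.

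Mature DC genes ran the other way. At least 3 of Fscn1, Ccr7, Ccl22 and Cacnb3 were found in 2 of 21 cycling DC-class cells at D0, in 5 of 9 at D5 and in 8 of 14 at D19, and the DC sum had used Fscn1 and Ccr7. In the other cells of the class the share was 42.4%, 64.1% and 66.0%. Fscn1 stood at 58.3 CPM in cycling DC-class cells at D0, at 628 at D5 and at 596 at D19, against 630.1, 965 and 820.1 CPM in the others. The rule had not used Ccl22, a chemokine that draws T cells, which had 1 UMI at D0, 38 UMIs in 3 cells at D5 and 58 UMIs in 6 cells at D19, with 65.8% and 67.2% of the later UMIs in 1 cell. Nor had it used Cacnb3, a calcium channel subunit, which stood at 12.7 CPM at D0 (4.11 to 29.6), 119 at D5 (70.6 to 188) and 89.4 at D19 (57.3 to 133), in 2 of 21, 5 of 9 and 8 of 14 cells. Its D0 interval did not overlap those of the later days, and the other DC-class cells stood at 124, 215 and 212 CPM. Fscn1, by which cells enter the class, was found in 7 of 21, 8 of 9 and 11 of 14 cycling cells. Ccl22 and Cacnb3 belong to the same set of mature DC genes, so their levels are a description and lend no separate support. Irf8, the transcription factor that cDC1 cells need, stood at 661, 192 and 555 CPM against 472, 225 and 214 CPM. At D19, 5 of the 14 cells were among those left out by the doublet score and 3 had under 10 genes of both cycle lists. Of the 8 D19 cells with 3 or more mature DC genes, 4 had a high doublet score and 2 others had under 10 genes of both cycle lists. Among firm calls, 3 or more mature DC genes were found in 0 of 12 DC-class cells at D0, 3 of 6 at D5 and 1 of 2 at D19, too few at D19 to read a level.

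Some cells of the DC class and of no class carried genes of natural killer (NK) cells. At least 2 of Ncr1, Klrb1c and Klre1, which encode NK receptors, were found in 3 of 21 DC-class cycling cells at D0, 0 of 9 at D5 and 3 of 14 at D19, against 8.25%, 2.61% and 2.46% of the other DC-class cells. Of these 3 D19 cells, 2 also held all 4 mature DC genes, and 1 of these 2 had a high doublet score. Of the 9 D0 cells without any lineage UMI, 4 held NK genes, with 4, 18, 10 and 10 Ncr1 UMIs. The 5 others and both tied cells held H2-Aa, at 91, 153, 13, 10, 96, 81 and 97 UMIs. The cell without a lineage at D5 held 6 Ncr1 UMIs and 44 of the 52 G2/M genes. Of the 2 at D19, 1 held 2252 UMIs of the haemoglobin gene Hbb-bs and the other had 333 CD11b tag UMIs. Counted over all cells with NK genes, 7 of 553 cycled at D0 (1.27%), 1 of 170 at D5 (0.588%) and 4 of 215 at D19 (1.86%).

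In the B lineage, D19 stood apart by its antibody genes. The heavy-chain constant gene with the most UMIs in a cell was taken as its leading isotype, where Ighm marks cells that have not switched class and the Ighg and Igha genes mark cells that have. A switched isotype led in 4 of 16 cycling B cells at D0 (25.0%, 7.27 to 52.4%), in 2 of 15 at D5 (13.3%, 1.66 to 40.5%) and in 17 of 22 at D19 (77.3%, 54.6 to 92.2%). The difference was 52.3 points between D19 and D0 (16.7 to 75.4) and 63.9 points between D19 and D5 (28.6 to 82.9). In the other B-lineage cells a switched isotype led in 0.541%, 0.328% and 1.84%.

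Ighg1, the constant region of IgG1, led in 9 of the 22 cells at D19 and in none at D0 or D5. Of the other 13 cells at D19, 5 were led by Ighm and 2 each by Ighg2b, Ighg2c, Ighg3 and Igha. At D0, 12 were led by Ighm, 2 by Ighg2b, 1 by Ighg2c and 1 by Ighg3. At D5, 13 were led by Ighm, 1 by Ighg2c and 1 by Igha. Ighm was at 0 UMIs in 12 of the 22 cells at D19, against 1 of 16 at D0 and 2 of 15 at D5. The switched cells of D19 were led by 2 to 1677 UMIs with a median of 9, and 12 of 16 cells with a clear lead (at least 5 UMIs and 2 times the next gene) were switched, against 2 of 9 at D0 and 1 of 14 at D5. With firm calls only, the counts were 15 of 19, 2 of 6 and 1 of 11, and the interval of D19 minus D0 then reached -5.09 points.

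Germinal centre genes were found beside the switched isotypes. At least 3 of S1pr2, Mybl1, Rgs13, Bcl6, Fas and Gcsam, among them the master regulator of the germinal centre (Bcl6), were found in 5 of 16 cycling B cells at D0 (31.2%, 11.02 to 58.7%). They were found in 3 of 15 at D5 (interval 4.33 to 48.1%) and in 13 of 22 at D19 (59.1%, 36.4 to 79.3%), against 0.311%, 0.0591% and 0.562% of other B-lineage cells. D19 was above D5 by 39.1 points (2.95 to 64.7) and above D0 by 27.8 points, with an interval that held 0 (-7.77 to 56.4). All 13 of these D19 cells had a switched leading isotype, as did 3 of the 5 at D0 and 1 of the 3 at D5. Cycling B-lineage cells were deeper, with medians of 18200, 19653 and 11188 UMIs against 3438, 3885 and 2073.5 in other B-lineage cells. Detection of the gene set was not compared at equal depth.

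Over all cells with germinal centre genes, in any lineage, 9 of 24 cycled at D0 (37.5%), 4 of 9 at D5 (44.4%) and 16 of 33 at D19 (48.5%, 30.8 to 66.5%), at median depths of 19631, 23266 and 9527 UMIs. The intervals of these shares overlap widely, and the D5 library held the fewest such cells. Not all of these cycling cells were of the B lineage: 3, 1 and 3 were of the DC class and 1 more at D0 was a T cell by its sum. The gene set was thus met by 14.3%, 11.1% and 21.4% of cycling DC-class cells, against 0.589%, 0.274% and 0.217% of the others of that class. The paper counts Gcsam among the genes of cDC1 cells, so the set is not specific to germinal centre B cells.

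**Figure D4:**
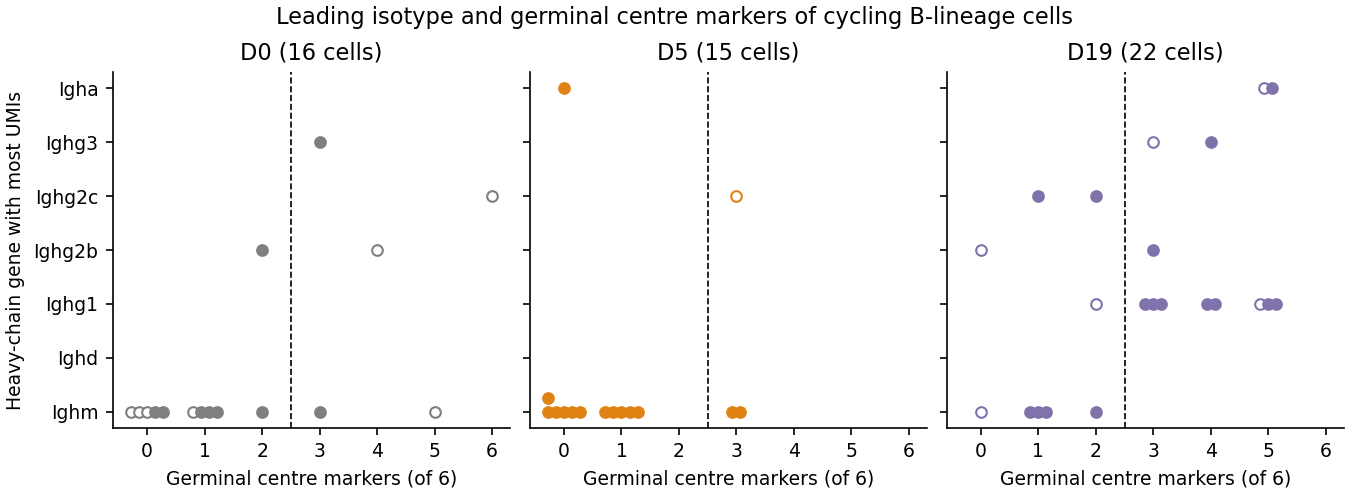
Heavy-chain gene with the most UMIs (y axis) against the number of 6 germinal centre genes detected (x axis) in each cycling B-lineage cell, 1 panel per library; filled points have a clear lead of at least 5 UMIs and 2 times the next gene, open points do not, and the dashed line separates cells with 3 or more germinal centre genes. At D19, 13 of 22 cells lie right of the line and none of them is led by Ighm, whereas at D5 13 of 15 cells are led by Ighm.

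Of 9 germinal centre genes measured against D0 at D19, Mybl1 and Rgs13 were higher and Cd83 was lower, and of 5 measured at D5 Mef2b was lower, by the fold rule given below. Of all genes measured, 2.24% were higher and 7.07% lower at D19, and 3.86% were lower at D5. Mef2b, a germinal centre transcription factor, had a level of 107 CPM at D0 (73.4 to 149.7 by the exact Poisson interval). The level was 18.2 CPM at D5 (6.67 to 39.5) and 170.2 CPM at D19 (126 to 224), against 5.31, 3.63 and 9.88 CPM in other B-lineage cells. Mybl1 stood at 12.9, 9.08 and 112 CPM, found in 3 of 16, 2 of 15 and 14 of 22 cells. Fas, the death receptor, stood at 48.4, 12.1 and 109 CPM and was found in 7 of 16, 2 of 15 and 17 of 22 cells. Ighd, the IgD chain of naive B cells, stood at 77.5, 133 and 17.02 CPM, against 626, 861 and 586 CPM in other B-lineage cells.

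Plasmablast genes were found in part of the same lineage. At least 3 of Jchain, Xbp1, Prdm1, Mzb1 and Sdc1, genes of antibody secretion, were found in 4 of 16 cells at D0, 1 of 15 at D5 and 10 of 22 at D19. D19 was above D5 by 38.8 points (5.88 to 62.0) and above D0 by 20.5 points, with an interval that held 0 (-14.1 to 49.0). By summed level the list did not follow: of its 7 genes measured at D19 against D0, none was higher and 2 were lower by the fold rule given below, with a median log2 difference of -0.35, where 7.07% of all genes were lower. Jchain, which joins antibody units, stood at 1463, 103 and 1511 CPM. Most of that came from single cells, since the cell with the most held 414 of 453 UMIs at D0, 30 of 34 at D5 and 286 of 444 at D19. Of all cells with plasmablast genes, 4 of 51 cycled at D0 (7.84%), 1 of 27 at D5 (3.70%) and 11 of 33 at D19 (33.3%, 18.0 to 51.8%). Most of the 10 cycling B-lineage cells at D19 with plasmablast genes also held 3 or more germinal centre genes. The counts of the 2 sets thus overlap and are not separate cell types. The D19 cell led by 1677 Ighg2c UMIs held all 5 plasmablast genes and 2 germinal centre genes.

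At D5, 4 of the 15 cycling B-lineage cells (26.7%, 7.79 to 55.1%) held both Vpreb1 and Igll1, which encode the surrogate light chain that pre-B cells build before they have a light chain of their own. These cells were singled out after their values had been seen. They held 31, 5, 4 and 26 Vpreb1 UMIs and 19, 2, 4 and 11 Igll1 UMIs. They held 64, 14, 21 and 23 UMIs of Vpreb3, another protein of that stage, and 32, 15, 28 and 18 UMIs of Ighm. Rag1 and Rag2, the recombinases, were at 0 in all 4, and H2-Aa, which maturing B cells gain, was at 8, 0, 0 and 0 UMIs. All 4 met the firm criteria, with 21 to 44 G2/M genes and 30 to 38 S phase genes. Both genes were seen together in 6 cells of the D5 library, in 2 cells of D0, of which none cycled, and in no cell of D19. Vpreb1 was detected, with or without Igll1, in 52 cells of D0, 23 of D5 and 5 of D19. The share of cycling B-lineage cells with both genes differed between D5 and D0 by 26.7 points, with an interval that held 0 (-1.27 to 55.1). Free RNA held 4, 7 and 0 Vpreb1 UMIs among 2334878, 4341726 and 862210 UMIs.

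Cycling T cells were divided by surface tag, which the rule had not used. A CD4-tag cell held 10 or more CD4 tag UMIs and at least 3 times its CD8a tag UMIs, and a CD8a-tag cell the reverse. At D0, 9 of 22 cells were CD4-tag (40.9%, 20.7 to 63.6%), 8 were CD8a-tag and 5 neither. At D5 the counts were 9, 6 and 0 of 15, and at D19 they were 8, 10 and 3 of 21. Among other T cells, 49.2%, 48.5% and 47.8% were CD4-tag and 45.4%, 46.9% and 48.0% CD8a-tag, and the intervals of both tag shares of the cycling cells held the value of the other T cells of their library on each day. The cells with neither tag call are given below.

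The tags and the RNA of these cells matched in part. Cd8a or Cd8b1 RNA was found in all CD8a-tag cells (8, 6 and 10 of them), and Cd4 RNA in 5 of 9, 7 of 9 and 7 of 8 CD4-tag cells and in no CD8a-tag cell. Cd8a or Cd8b1 RNA was also found in 2 of 9, 3 of 9 and 3 of 8 CD4-tag cells. The CD3 tag reached 10 UMIs in 20 of 22, 15 of 15 and 19 of 21 cells. That level was not particular to T cells. It was reached in 12 of 16, 6 of 15 and 3 of 22 cycling B-lineage cells, and in 9 of 21, 6 of 9 and 7 of 14 of the DC class. The medians were 148.5, 94 and 37 tag UMIs in cycling T cells, 17, 8 and 1.5 in B cells and 9, 14 and 9 in the DC class. The CD4 tag of CD4-tag cells had a median of 912 UMIs at D0 (218 to 2139), 1547 at D5 (1026 to 3041) and 536 at D19 (353 to 650). Of CD4-tag T cells 0.694%, 1.11% and 0.655% cycled, and of CD8a-tag T cells 0.669%, 0.770% and 0.814%. Of T cells with neither tag call, 5 of 146 cycled at D0 (3.42%), 0 of 76 at D5 and 3 of 108 at D19 (2.78%).

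**Figure D5:**
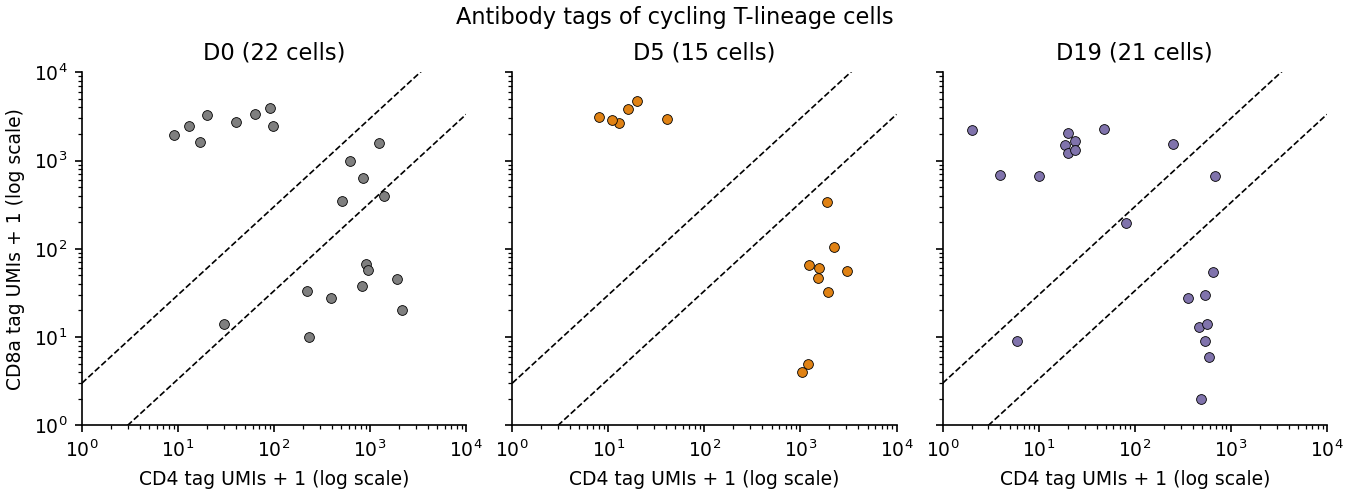
CD4 tag UMIs plus 1 (x axis, log scale) against CD8a tag UMIs plus 1 (y axis, log scale) of each cycling T-lineage cell, 1 panel per library; the dashed lines are the 3-fold ratios that bound the CD4-tag cells below and the CD8a-tag cells above. At D5 all 15 cells fall into either group, whereas 5 of 22 cells at D0 and 3 of 21 at D19 fall into neither.

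Regulatory T cells, which restrain immune responses, were part of the cycling CD4-tag cells. Foxp3, their defining transcription factor, was found in 2 of 9, 2 of 9 and 3 of 8 CD4-tag cycling cells and in no CD8a-tag cell, against 5.98%, 5.38% and 4.12% of other CD4-tag T cells. Cycling T-lineage cells were deeper, with medians of 20480, 17263 and 17092 UMIs against 5444, 6325 and 3686 in other T-lineage cells. Detection was not compared at equal depth, so no difference in regulatory T cell content is read from it. Of all CD4-tag T cells with Foxp3, 2 of 79 cycled at D0 (2.53%, 0.308 to 8.85%), 2 of 45 at D5 (4.44%, 0.543 to 15.1%) and 3 of 53 at D19 (5.66%, 1.18 to 15.7%). In CD4-tag cycling cells Ikzf2, a regulatory T cell transcription factor, had a level of 143 CPM at D0 (89.5 to 216). Its level was 355 CPM at D5 (273 to 456) and 346 CPM at D19 (257 to 454), against 65.7, 87.2 and 90.3 CPM in other CD4-tag cells. Tnfrsf4, the costimulatory receptor OX40, stood at 71.4, 367 and 319 CPM against 59.4, 60.3 and 89.4 CPM. Both genes were higher at D5 and D19 than at D0 with intervals that did not overlap, while 5 cells carried Ikzf2 on each day. By counts of cells, the regulatory T cell set did not rise. At least 2 of Foxp3, Il2ra and Ikzf2 were found in 4 of 22, 2 of 15 and 2 of 21 cycling T-lineage cells. Among CD4-tag cycling cells the counts were 3 of 9, 2 of 9 and 2 of 8.

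Of 10 type 1 and cytotoxic T cell genes, none was past the fold between cycling and other T cells in all libraries. Nkg7, a granule protein of cytotoxic cells, was found in 7 of 8, 6 of 6 and 9 of 10 CD8a-tag cycling cells at 652, 455 and 497 CPM, against 778, 608 and 366 CPM in other CD8a-tag cells. In CD4-tag cycling cells it was found in 3 of 9, 4 of 9 and 1 of 8 cells, at 97.4, 172 and 6.78 CPM. Ccl5, a chemokine of memory and effector cells, stood at 751, 73.6 and 1864 CPM in the cycling cells and at 2429, 1249 and 1352 CPM in the others. Il17a was at 0 UMIs in the cycling T cells of all libraries.

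Levels of genes were then compared between cycling cells and the other cells of their lineage in each library. A gene counted as past the fold when its log2 difference of CPM plus 10 was 1 or more in size, its exact Poisson intervals did not overlap and both held in all 3 libraries. The gate had chosen the cells, so this is a description. In T cells 2.97% of 9838 genes were higher by this rule and 0.264% lower. In B cells 2.34% of 9146 genes were higher and 0.798% lower. Of the S phase list, 31 of 36 measured genes were higher in T cells and 24 of 34 in B cells, and of the G2/M list 27 of 37 and 26 of 34. The median log2 difference was 2.07 and 1.97 for the S phase list and 2.29 and 2.24 for the G2/M list, against 0.01 and -0.04 for all genes.

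Hmgb2, a chromatin protein of the G2/M list, stood at 3156, 3073 and 3917 CPM in cycling T cells and at 332, 209.6 and 239 CPM in other T cells. Pcna, the sliding clamp of DNA replication, stood at 450.1, 485 and 351 CPM against 78.2, 71.4 and 76.7 CPM. Birc5, which encodes survivin of the mitotic spindle, stood at 296, 330.5 and 340.4 CPM against 2.20, 1.47 and 4.22 CPM. Outside the cycle lists, the genes that differed most in every library included Pclaf, a PCNA-binding protein, at 891, 642 and 714 CPM in cycling T cells against 3.73, 0.9502 and 6.57 CPM. In B cells Pclaf stood at 1173, 406 and 1055 CPM against 9.53, 1.38 and 4.34 CPM. Stmn1, a microtubule regulator, was found in 21 of 22, 13 of 15 and 21 of 21 cycling T cells. The linker and core histone genes Hist1h1b, Hist1h2ae, Hist1h2ap, Hist1h3c and Hist1h2ab were also among the 10 leading genes of both lineages, with smallest log2 differences over the 3 libraries of 3.25 to 5.86 in T cells and 2.74 to 3.97 in B cells. Their gene copies are near identical, so reads may be split among them.

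Genes of resting and circulating lymphocytes were lower. In T cells 6 of 12 genes of that list were past the fold downward in all libraries, with a median log2 difference of -1.56, and in B cells 5 of 12 with a median of -1.28. S1pr1, the receptor that lets lymphocytes leave the node, stood at 91.0, 64.9 and 104 CPM in cycling T cells and at 306, 310.2 and 352 CPM in the others. Il7r, the receptor of a survival cytokine, stood at 72.3, 167 and 151 CPM against 337, 486 and 597 CPM. Klf2, a factor of quiescence, stood at 342, 139 and 71.5 CPM in cycling B cells and at 1445, 692 and 533 CPM in the others. Of 18 measured nucleotide synthesis genes, 8 were higher in cycling T cells and none was lower, and of 17 in B cells 9 were higher.

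Between days, gene levels of the cycling T cells differed at D5 from D0 in 1.49% of 4158 genes upward and 3.66% downward, by the same fold and interval rule within 1 comparison. At D19 the shares were 2.35% of 4260 genes upward and 5.09% downward. In cycling B cells they were 1.96% of 3884 upward and 3.86% downward at D5, and 2.24% of 3436 upward and 7.07% downward at D19. These comparisons share the D0 library. Differences between libraries of 15 to 22 cells include genes that 1 cell carried, and such genes are named with that cell's share.

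Genes of dissociation stress were lower on both later days. Of 8 such genes, immediate early and heat shock genes known to be induced when tissue is digested, 7 were lower in T cells at D5 (median log2 difference -2.88) and 7 at D19 (-2.70). In B cells 5 were lower at D5 (-1.64) and all 8 at D19 (-2.42). Hspa1a, a heat shock protein, had 237 UMIs in 12 of 22 cycling T cells at D0 and none at D19. That is 67.1-fold lower with 3 counts put in place of 0, and the interval of the log2 ratio ended at -5.76. In cycling B cells Hspa1a had 190 UMIs at D0 and none at D19, 60.1-fold lower by the same floor, with an interval of the log2 ratio that ended at -5.60. It was also high at D0 outside the gate, at 223, 18.4 and 0.188 CPM in other T cells and 624, 24.5 and 0.694 CPM in other B cells. Fos stood at 1668, 185 and 154 CPM in cycling T cells and at 544, 275 and 271 CPM in other T cells. The stress genes thus moved with the libraries and not with the cycling cells alone, and how the nodes were handled on each day cannot be told apart from the diet.

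MHC class II genes led the lower genes of cycling T cells at D5. H2-Aa had 967 UMIs in 11 of 22 cells at D0 and 5 UMIs in 4 of 15 cells at D5, a log2 difference of -6.48 (interval of the log2 ratio -8.82 to -5.96). Cd74, the class II chaperone, stood at 5262 and 64.9 CPM, a log2 difference of -6.14. At D0, 8 of the 22 T cells held 10 or more H2-Aa UMIs, and 6 of these 8 also carried the CD11b tag at 100 or more UMIs. Of these 8, 1 met the firm criteria. None of 15 cells held 10 H2-Aa UMIs at D5 and 3 of 21 did at D19, against 4.32%, 4.61% and 2.17% of other T cells. Free RNA held H2-Aa at 3345, 3022 and 1691 CPM. Genes of DC and myeloid cells were also lower in cycling T cells. At D5, 3 of 3 measured cDC1 genes (median log2 difference -2.91), 1 of 1 cDC2 gene and 1 of 1 monocyte and macrophage gene were lower, and at D19 the counts were 2 of 3, 1 of 1 and 1 of 1, where 3.66% and 5.09% of all genes were lower. The part of DC joined to T cells in these values was not tested.

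Other named differences of T cells were Maf, a transcription factor of effector T cells, which had 53 UMIs in 6 of 15 cells at D5 and 10 UMIs in 5 of 22 cells at D0 (log2 difference 2.38), with 41.5% of the D5 UMIs in 1 cell. Capg, an actin-capping protein, had 74 UMIs in 10 of 15 cells and 22 UMIs in 7 of 22 cells (1.96), and Gm15472 had 19 and 4 UMIs (1.83). Areg, a growth factor, had 87 UMIs at D5 and 5 at D0, but 1 cell held 98.9% of the D5 UMIs. Gm42418, a locus that overlaps ribosomal RNA, stood at 17156 and 4149 CPM, and at 30569.8 and 6809 CPM in other T cells. Hspa1b completed the lowest at D5, with 1 UMI against 159.

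At D19 the metallothionein genes Mt1 and Mt2, which bind zinc and other metals, were higher in cycling T cells. Mt1 had 172 UMIs in 9 of 21 cells at D19 and 13 UMIs in 2 of 22 at D0 (log2 difference 3.58), and 1 cell held 86 of the D19 UMIs. Mt2 had 45 UMIs in 4 cells and none at D0, and 1 cell held 60.0% of them. Mt2 was 17.7-fold higher by the floor for genes at 0 UMIs used above, and the interval of the log2 ratio began at 3.78. Mt1 was also higher in other T cells at D19, at 44.3 CPM against 8.50 CPM at D0, and in free RNA, at 517 against 61.3 CPM. Haemoglobin genes were left out of the naming, and 1 T cell at D19 held 5994 UMIs of the erythroid list, of which 2 of 2 measured genes were higher. Next to them, Igha, Igkc and Jchain had the largest differences (6.63, 5.79 and 5.67), and 1 cell held 100%, 96.6% and 99.6% of their D19 UMIs. Downward at D19 stood Hspa1a, Hspa1b, Atf3 and Jun, all of stress responses, and Plbd1, a myeloid phospholipase-like gene with 1 UMI against 94. Of the regulatory T cell list, 2 of 4 measured genes were higher at D5 and 2 of 5 at D19, where 1.49% and 2.35% of all genes measured were higher.

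Among the higher genes of B cells at D5 were Vpreb1 and Igll1, with 66 and 36 UMIs in the 4 cells described above and none at D0. They were 20.6-fold and 11.2-fold higher with 3 counts put in place of 0, and the intervals of the log2 ratio began at 4.03 and 3.12. Gpcpd1, a phosphodiesterase, had 32 UMIs in 13 of 15 cells against 4 UMIs in 4 of 16 cells (log2 difference 2.22). Lyz2 and Chil3, myeloid genes, had 157 and 20 UMIs in 3 cells each, against 9 and 0 UMIs at D0, and the cell with the most held 54.1% of the Lyz2 and 75.0% of the Chil3 UMIs at D5. Of 7 plasmablast and plasma genes measured, 5 were lower at D5, and Fkbp11, which helps fold secreted proteins, had 42 UMIs in 3 of 16 cells at D0, 69.0% of them in 1 cell, and none at D5. Single D0 cells held 99.7% of Ighg3, 100% of Prg2 and 94.4% of Ccl4, which were lower at D5. Of the S phase list 5 of 37 measured genes were lower at D5, and of the G2/M list 2 of 35, the latter near the 3.86% of all genes that were lower.

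At D19 heavy-chain genes stood at both ends. Of 8 immunoglobulin constant genes measured, 3 were higher and 3, Ighm, Ighd and Ighg3, lower, with a median log2 difference of -0.25. Ighg1 had 90 UMIs in 9 of 22 cells and 1 UMI in 1 of 16 cells at D0 (log2 difference 4.58, interval of the log2 ratio 4.05 to 11.9), and no cell held over 24.4% of it. Ighg2c had 1683 UMIs against 17, with 99.6% in 1 cell, and Ighg2b 136 against 17, with 66.2% in 1 cell. Slpi, a secreted protease inhibitor, had 164 UMIs in 10 of 22 cells and 19 UMIs in 2 of 16 cells (2.99), with 67.1% of the D19 UMIs in 1 cell. H1f0, a linker histone, had 98 UMIs against 5, with 92.9% in 1 cell. Downward were Hspa1a, Hspa1b and Atf3 of the stress genes, Ighg3, and Tbc1d4, a regulator of vesicle traffic. Tbc1d4 had 118 UMIs in 9 of 16 cells at D0 and none at D19. It was 37.3-fold lower with 3 counts put in place of 0, and the interval of the log2 ratio ended at -4.90. Of the G2/M list 3 of 36 measured genes were higher and none lower, beside 2.24% of all genes higher.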

How the data were processed

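RNA and surface tag UMIs of 3 LN CITE-seq libraries (10x Genomics 3′ chemistry) were analysed. The submitters' processing notes name Cell Ranger and the mouse build mm10. The deposited values were raw UMI counts per gene or tag and barcode, with no filter for cells.

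Cells were barcodes with at least 1000 RNA UMIs, 500 genes and at most 10% mitochondrial UMIs. The gate and the lineage rule are given above. Equal largest sums were called tied. The 3 libraries were 1 per day, so nothing was tested and p-values are absent. Shares were given exact Clopper-Pearson intervals, UMI sums exact Poisson intervals, and differences an interval combined from both shares (Newcombe form), all at 95%. PCR duplicates had been collapsed by UMI, and UMIs were treated as independent. CPM were computed from the summed UMIs of all cells of a lineage in a library, scaled to 1000000 RNA UMIs. Genes with 20 or more UMIs over both groups were compared, on log2 of CPM plus 10. Floors for genes at 0 were 3 counts per library and lineage, and folds against these floors are not interval limits.

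The members, marker lists and gene lists were chosen with earlier results of these data known. Firm calls, the number of markers needed, the H2-Aa class, the clear isotype lead and the Vpreb1 cells were set after values had been seen. Named genes were list members of high level, the 5 largest differences per direction, lineage and day, and, against other cells, the 10 genes with the highest smallest difference, without mitochondrial, ribosomal, haemoglobin and receptor variable genes. Doublets were scored with Scrublet in scanpy 1.11.5 at 0.8% per 1000 cells and kept in the main values. Alternatives were thinning, the doublet score, free RNA subtraction, other pseudocounts and a gate without the marker genes. Scripts used Python 3.11.15, NumPy 2.4.6, SciPy 1.17.1 and pandas 2.3.3 and were tested on simulated data. Some markers of the B cell lists are not reported here, and every count was made without them. Libraries of γδ T cells were not used beyond counting their cells.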

Additional observations from a re-analysis of the deposited data

How the results depend on the processing

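Of 143 alternative values of shares and counts of genes, 122 stayed within the 95% interval of the main value, or within 1.5 times a main count of genes, and 21 did not. The sign turned in 13, of which 1, the DC lineage at D5, had a main interval that excluded 0. With the gate free of Mki67 and Top2a, the difference of the cycling share from D0 was -1.27 points at D5 and -1.34 at D19. It was -1.10 and -1.30 within T cells and -1.34 and -0.870 within B cells. After thinning to 1000 UMIs, D5 minus D0 was -0.0401 points in whole libraries and -5.40 points for the B share of cycling cells. The DC lineage reversed to 0.106 points at D5 and moved to -0.110 at D19, and the H2-Aa class moved to -0.247 and -0.346. These values rest on few expected cells, at most 1.96 per day in the DC lineage and 3.77 in the H2-Aa class, and carry no interval. The gate passes fewer cells at 1000 UMIs by construction. With cells thinned to 5000 UMIs, D19 minus D0 was 0.744 points in whole libraries, 1.12 in T cells and 5.10 in B cells, and D5 minus D0 was -1.08 in B cells. That setting left out most D19 cells, and the cause was not tested. A pseudocount of 50 in place of 10 lowered the genes past the fold from 214 to 109 and from 317 to 135 in T cells, and from 226 to 108 and from 320 to 189 in B cells, at D5 and D19. Subtracting free RNA raised the count of B cells at D5 to 349. All 40 named genes kept their sign in 240 alternatives, and 2 values fell under a size of 1, those of Gm15472 at a pseudocount of 50 (0.87) and Ccl4 with the doublet score (-0.72). The free RNA part was estimated from T genes in B cells and B genes in T cells, so barcodes that join both cell types raise it. It came to 22.2% of UMIs in B cells and 1.22% in T cells at D0, and 13.4% in T cells at D19. On the 3 days, 5, 0 and 7 cycling cells held 2 or more UMIs of both the T and the B sum. These estimates are therefore not measured levels of free RNA, and the part of joined cells was not tested. No paired analysis was possible because each day had 1 library, and for the same reason no replicate could be left out. The thinning to 5000 UMIs, the H2-Aa limits of 5 and 20 UMIs, the clear lead and the firm calls were chosen after seeing the data.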
